A study of Homo sapiens with 12 samples.

Results

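Keratinocyte differentiation was followed in HSC-3 cells, a human oral squamous carcinoma line, through 9 genes chosen by name: OVOL1, KRT15, HRNR, KRT13, KRT5, KRT14, KRT17, IVL and SPRR1B. They were chosen with earlier results of these data known, and are 9 of the 60675 gene rows in the deposited counts. Each was read at its own row and, where there was one, at the counted feature with most reads whose exons overlap those of the gene by at least 30 bases on the other strand. This gave 11 readings, of which 8, from 7 of the genes, had enough reads to be tested. All cells were HSC-3, a single line, and formed 3 groups of 4 libraries: cells given 25 µM cyclopiazonic acid (CPA) together with synta-66 for 3 hours, cells given 25 µM CPA for 3 hours, and untreated cells. CPA blocks the calcium pump of the endoplasmic reticulum, so that the store runs empty and ORAI channels of the cell surface let calcium in. Synta-66 is an ORAI inhibitor; the sources used here give no dose for it, and cells with synta-66 and no CPA were not analysed here. The labels do not say whether replicate libraries are separate cultures, and p-values then measure only a spread between samples that may be technical.

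Stratified epithelia such as skin and oral mucosa renew from a basal layer. Basal keratinocytes carry the keratin pair KRT5 and KRT14, and KRT15 is another keratin of the basal layer. Cells that leave it switch to other keratins, KRT13 among them in the oral mucosa, and later build the cornified envelope from proteins such as involucrin (IVL), small proline-rich proteins (SPRR1B) and hornerin (HRNR). KRT17 is a keratin of stressed, wounded and transformed epithelium. OVOL1 is a zinc-finger repressor that promotes the exit from proliferation and holds back mesenchymal programmes. A rise of extracellular or intracellular calcium is a classical trigger of this differentiation in cultured keratinocytes.

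Per library, 2819486 to 5458858 reads fell in genes, 3.58% to 9.4% of the uniquely aligned reads. In CPA with synta-66 replicates 1 and 4 and untreated replicate 3, which were high in non-unique alignments, the 2 mitochondrial ribosomal RNAs took 39.6% to 53.5% of gene reads, against 0.165% to 11.8% in the other 9 libraries. The counting strand limits every reading: the sources used here name no library kit, whether the strand setting of the counting matched it is not known, and own-row values of KRT15, HRNR, KRT13, KRT5, KRT14 and KRT17 may hold RNA of the other strand. Of 2405 coding genes that had a counted noncoding feature opposite them and at least 60 reads in all at either place, 76.5% had more reads at the opposite feature. KRT8 and KRT18, the keratin pair of simple epithelia, overlap on opposite strands, and the row of KRT8 had between 19476 and 39587 reads per library and that of KRT18 between 107 and 199, so reads of both cannot be assigned to one. At an opposite feature, RNA of the feature and RNA of the gene across from it cannot be told apart, and a row at or near 0 says little of a gene's expression. As the samples are bulk, fewer cells of a type and less RNA per cell cannot be told apart either. Below, "with synta-66" stands for CPA given together with synta-66. CPM gives the reads of a row relative to the library's reads in all tested rows, scaled by TMM. The summed own rows of 6 epithelial markers lay at 7966 to 8688 CPM with synta-66. They lay at 7076 to 8155 CPM with CPA and 7003 to 7608 CPM in untreated cells. KRT8 held almost all of these reads. Own rows of 6 fibroblast markers summed to at most 0.811 CPM with synta-66, 0.648 CPM with CPA and 1.04 CPM in untreated cells, with 4 at 0 throughout (COL3A1, PDGFRB, DCN and LUM). Own rows of 5 endothelial markers reached at most 0.811, 1.29 and 0.293 CPM in the same order, with KDR at 0. Of 6 immune markers CD3E and MS4A1 were at 0, and the sum was 2.18 to 6.09, 3.48 to 6.71 and 5.63 to 9.0 CPM, most of it at CD68, a lysosomal protein not confined to immune cells. At the 2 features opposite immune markers the sum was 48.2 to 55.6 CPM with synta-66, 53.7 to 64.3 CPM with CPA and 48.1 to 51.9 CPM in untreated cells, nearly all at ENSG00000233223 opposite CD68, so the low own rows do not set a limit on other cell types.

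OVOL1 lies on chromosome 11 (65787063 to 65797214, plus strand, GRCh38). Its own row was all but empty, with 0 reads in each library with synta-66, 0, 0, 4 and 5 reads with CPA and 2, 4, 0 and 4 reads in untreated cells, and was not tested. The feature opposite it, the noncoding ENSG00000255404 (chromosome 11, 65795946 to 65797219, minus strand), had between 52 and 546 reads per library. Its exons measure 1044 bases, of which 1039 lie across from the last exon of OVOL1, all in the untranslated part after the stop codon and none in coding sequence. A second noncoding gene on that strand, OVOL1-AS1 (65789051 to 65790868), lies within OVOL1 but touches none of its exons. OVOL1-AS1 had between 2 and 20 reads per library.

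**Figure D1:**
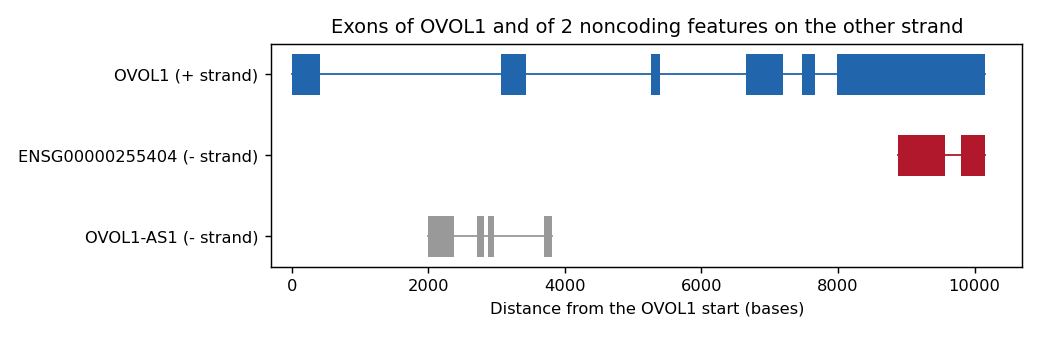
Exons (boxes) of OVOL1, of ENSG00000255404 and of OVOL1-AS1, drawn to scale by distance in bases from the OVOL1 start. The exons of ENSG00000255404 face the last exon of OVOL1, and those of OVOL1-AS1 face introns.

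HRNR, IVL and SPRR1B belong to the epidermal differentiation complex on chromosome 1, and their promoter windows, from 250 bases before to 50 bases after the start (RefSeq, GRCh38.p14), are shown because HRNR was tested and the other 2 envelope genes could not be. Windows were matched for 4 of the 9 genes: these 3 and KRT5. Capitals mark the NFAT core GGAAA or its reverse complement and the AP-1 motif TGANTCA, each searched on both strands. The windows are chr1:152224144-152224443 (minus strand) for HRNR, chr1:152908296-152908595 (plus strand) for IVL and chr1:153030953-153031252 (plus strand) for SPRR1B, each printed along the gene.
HRNR: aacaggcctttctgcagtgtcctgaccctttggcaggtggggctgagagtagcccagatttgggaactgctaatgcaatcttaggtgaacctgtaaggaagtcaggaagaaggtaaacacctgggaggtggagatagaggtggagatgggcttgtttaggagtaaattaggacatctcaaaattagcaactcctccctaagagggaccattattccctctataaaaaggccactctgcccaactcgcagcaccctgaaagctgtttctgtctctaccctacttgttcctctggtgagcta
IVL: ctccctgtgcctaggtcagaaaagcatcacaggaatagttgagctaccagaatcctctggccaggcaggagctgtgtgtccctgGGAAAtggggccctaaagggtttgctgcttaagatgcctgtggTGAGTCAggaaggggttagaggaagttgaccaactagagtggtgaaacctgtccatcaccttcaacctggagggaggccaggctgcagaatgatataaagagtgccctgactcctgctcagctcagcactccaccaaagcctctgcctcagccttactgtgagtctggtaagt
SPRR1B: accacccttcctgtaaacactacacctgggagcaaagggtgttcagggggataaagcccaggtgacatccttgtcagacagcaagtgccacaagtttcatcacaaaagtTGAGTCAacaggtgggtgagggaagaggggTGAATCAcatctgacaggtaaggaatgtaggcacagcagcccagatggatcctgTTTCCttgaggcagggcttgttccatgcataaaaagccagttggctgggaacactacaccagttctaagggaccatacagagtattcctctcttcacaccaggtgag
IVL had 1 NFAT core and 1 AP-1 match, and SPRR1B had 1 NFAT core and 2 AP-1 matches. HRNR and KRT5 had 0 matches of either. None of the 4 windows held the CRE TGACGTCA or the OVOL core CCGTTA. Of 35116 promoter windows of the same length, 61.2% held the NFAT core, 7.71% the AP-1 motif, 1.85% the CRE and 3.07% the OVOL core. A match is a description of the letters and not a site.

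Measurable by the study's own filter (at least 5 reads in a share of 0.5 of the libraries of a group) were OVOL1 at its opposite feature, KRT13 at both readings, and KRT15, HRNR, KRT5, KRT14 and KRT17 at their own rows. KRT17 also faces a noncoding feature in GENCODE 44, ENSG00000289252, that was not analysed here. IVL (chromosome 1, 152908546 to 152911886) had 0 reads in all 12 libraries, which allows up to 0.598 to 1.30 CPM per library for counting error alone (3 reads). SPRR1B (chromosome 1, 153031203 to 153032900) had 0 reads in each library with synta-66, 6, 2, 2 and 0 reads with CPA and 0, 0, 2 and 0 reads in untreated cells. Neither has a counted feature opposite it, so nothing can be said of IVL, and of SPRR1B only that its few reads were too sparse to test. KRT15 and KRT13 passed the filter through the CPA and untreated libraries, not through those with synta-66.

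**Figure D2:**
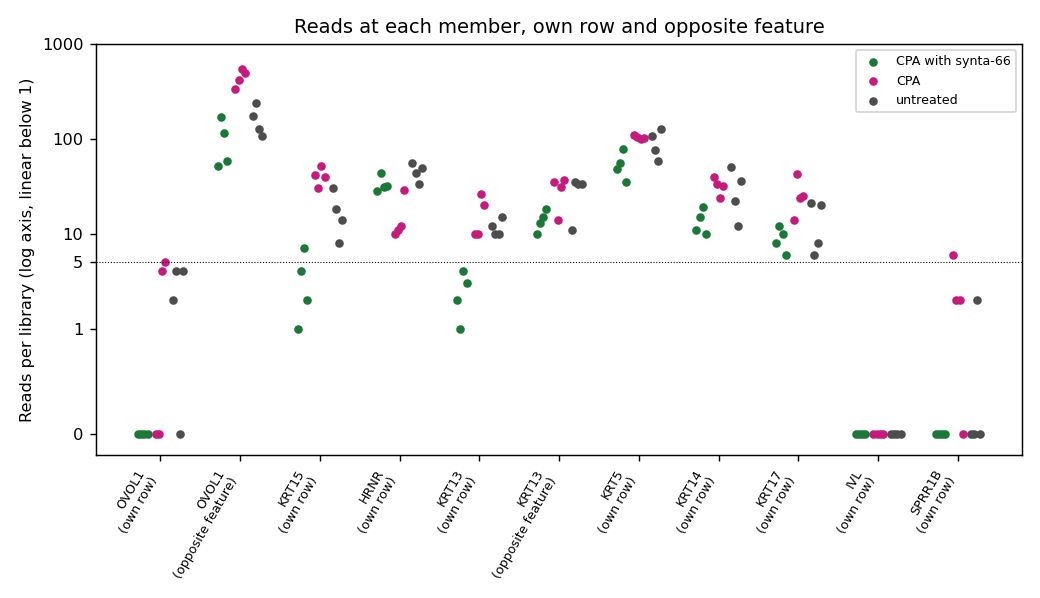
Reads per library (log axis, linear below 1) for the 11 readings, with points for the 4 libraries of each group and a dotted line at 5 reads. OVOL1 had 52 to 546 reads at the opposite feature and at most 5 at its own row, and IVL had 0 reads in all 12 libraries.

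The first comparison asks what CPA did. OVOL1 rose and HRNR fell, and no other reading was called, in edgeR's quasi-likelihood test, where a call needs both an adjusted p under 0.05 and 1.5-fold. That is 2 of the 8 readings, 1 higher and 1 lower, while 2.85% of all 14911 tested rows were called (1.8% higher and 1.05% lower). The median log2 fold change was 0.17 over the 8 readings and -0.01 over all tested rows. As the genes were chosen with earlier results of these data known, these counts and medians are a description.

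At its opposite feature OVOL1, the zinc-finger repressor, had 87.2, 98.1, 112 and 108 CPM with CPA, against 36.0, 47.2, 39.4 and 31.6 CPM in untreated cells. Every CPA library lay above every untreated library. The groups did not overlap at 3 of the 8 readings, and at 10.3% of all tested rows. The means were 101 ± 10.9 and 38.6 ± 6.57 CPM (SD, n = 4 each). The log2 fold change was 1.39 ± 0.15 (SE; 95% interval 1.09 to 1.68), or 2.61-fold (edgeR, Benjamini-Hochberg adjusted p = 2.1e-09). OVOL1-AS1, on the same strand but across from introns, had 2.94 ± 1.52 CPM with CPA and 1.18 ± 0.665 CPM in untreated cells (SD, n = 4 each) and was not called (log2 fold change 1.32 ± 0.68, SE; adjusted p = 0.362 in the same test).

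HRNR, a large S100-fused envelope protein (chromosome 1, 152212076 to 152224193, minus strand), was lower with CPA at its own row. OVOL1 was read at an opposite feature, so the directions of these readings do not compare like with like. HRNR had 2.58, 2.56, 2.46 and 6.26 CPM with CPA, against 11.7, 8.80, 10.3 and 14.4 CPM in untreated cells. All 4 CPA libraries lay below all 4 untreated ones, and CPA replicate 4 stood well above the other CPA libraries. The log2 fold change was -1.68 ± 0.35 (SE; 95% interval -2.39 to -0.98; edgeR adjusted p = 0.00122) and was -2.13 without CPA replicate 4. These values rest on 10 to 29 reads per CPA library and 33 to 56 per untreated library. HRNR lies inside the span of the long noncoding FLG-AS1 on the other strand (chromosome 1, 152168125 to 152445456), with no exon overlap of 30 bases or more. FLG-AS1 had 0.978 ± 0.656 CPM with CPA and 1.27 ± 0.808 CPM in untreated cells (SD, n = 4 each) and was not called (log2 fold change -0.40 ± 0.91, SE; edgeR adjusted p = 0.906).

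KRT15, a basal keratin (chromosome 17, 41513745 to 41522529, minus strand), had 10.8, 6.98, 10.6 and 8.63 CPM with CPA, against 6.25, 3.60, 2.5 and 4.10 CPM in untreated cells. The groups did not overlap, but the difference was not called (log2 fold change 1.15 ± 0.40, SE; 95% interval 0.33 to 1.97; edgeR adjusted p = 0.106). DESeq2 placed it just past the threshold, at adjusted p = 0.0482. KRT5 and KRT14, the keratin pair of basal cells, had overlapping groups. KRT5 averaged 23.8 ± 3.63 CPM with CPA and 23.3 ± 9.86 CPM in untreated cells, with a 95% interval of the log2 fold change from -0.41 to 0.49. KRT14 averaged 7.45 ± 2.24 CPM with CPA and 7.28 ± 3.71 CPM in untreated cells (SD, n = 4 each), with an interval from -0.73 to 0.78. KRT5 had a log2 fold change of 0.04, which was 0.35 (95% interval -0.10 to 0.80) without untreated replicate 4, the highest untreated library.

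KRT17 had 3.61, 10.0, 4.91 and 5.40 CPM with CPA, against 4.37, 1.20, 2.5 and 5.86 CPM in untreated cells, with overlapping groups and an interval from -0.16 to 1.74. KRT13, the suprabasal keratin of oral mucosa, had a log2 fold change of 0.30 (95% interval -0.85 to 1.44) at its own row and -0.12 (-0.94 to 0.71) at the opposite feature. Only uniquely aligned reads were counted, so reads shared by near-identical type I keratins and their pseudogenes are missing from KRT14 and KRT17, whose levels are uncertain to that extent.

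**Figure D3:**
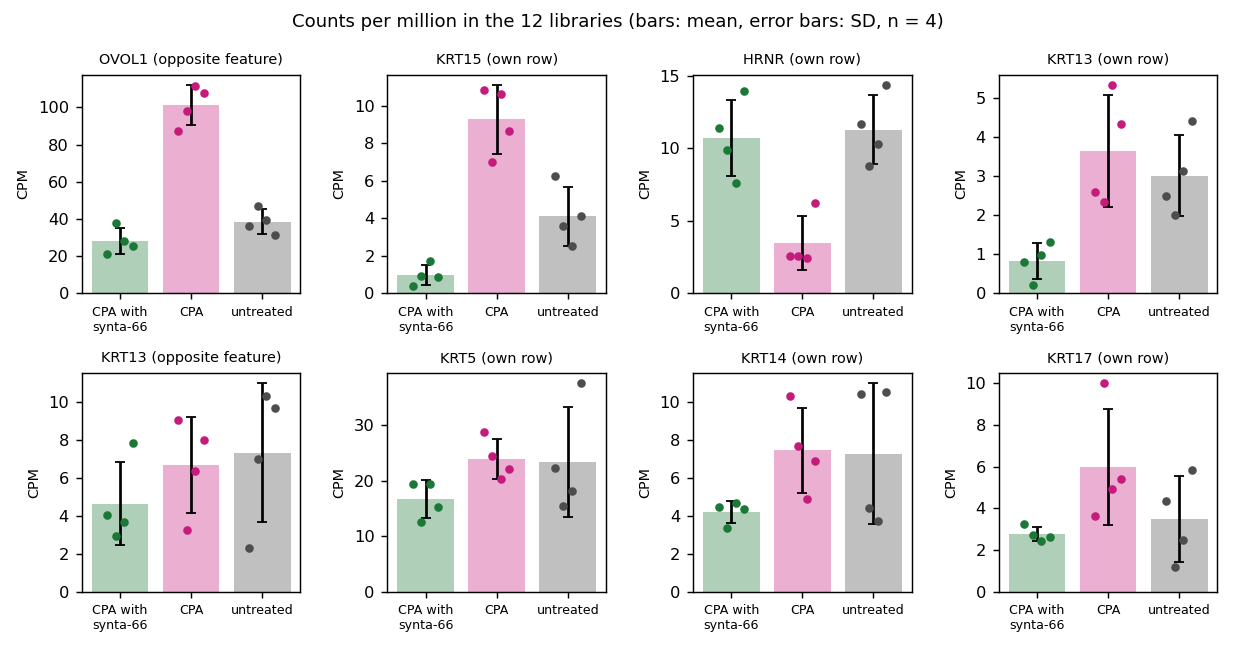
CPM for the 8 tested readings in the 3 groups (points: libraries, bars: mean, error bars: SD, n = 4). OVOL1 averaged 28.1, 101 and 38.6 CPM from left to right, and HRNR had its lowest mean, 3.46 CPM, with CPA.

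The second comparison sets CPA with synta-66 against CPA alone. As cells with synta-66 and no CPA were not analysed here, dependence on ORAI channels cannot be told from other effects of synta-66. OVOL1, KRT15 and KRT13 at its own row fell and HRNR rose. These are 4 of the 8 readings, 1 higher and 3 lower, with 4.76% of all tested rows called (1.94% higher and 2.82% lower). The CPM ranges of the groups did not overlap at 7 of the 8 readings, lower with synta-66 at 6 of them, and at 12.3% of all tested rows. The genes were chosen with earlier results known, and KRT15 and KRT13 entered the test only through groups in which they were high. These counts are therefore a description.

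OVOL1 at its opposite feature had 21.1, 37.8, 28.0 and 25.2 CPM with synta-66, against 87.2, 98.1, 112 and 108 CPM with CPA alone. The highest library with synta-66 was below the lowest with CPA alone. This was a log2 fold change of -1.82 ± 0.15 (SE; 95% interval -2.13 to -1.52), a level 3.54-fold lower (edgeR adjusted p = 3.2e-12). It was -1.65 when the 3 libraries high in non-unique alignments were left out. OVOL1-AS1 had 2.90 ± 2.00 CPM with synta-66 and 2.94 ± 1.52 CPM with CPA alone (SD, n = 4 each), a log2 fold change of -0.04 ± 0.65 (SE), and its difference from OVOL1 was not tested.

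KRT15 showed the largest called change of the 9 genes in this comparison. It had 0.406, 0.901, 1.72 and 0.870 CPM with synta-66, against 10.8, 6.98, 10.6 and 8.63 CPM with CPA alone. In reads these were 1, 4, 7 and 2 per library with synta-66 and 42, 30, 52 and 40 with CPA alone. On the log2 scale the change was -3.13 ± 0.49 (SE; 95% interval -4.12 to -2.14; edgeR adjusted p = 1.24e-05), and leaving out any one library kept it between -3.57 and -2.93. KRT15 passed the filter only through groups in which it was high, so this call is a description. KRT19, a keratin of simple epithelia just beyond KRT15 on chromosome 17, had 2.75 ± 1.84 CPM with synta-66 and 2.38 ± 1.11 CPM with CPA alone (SD, n = 4 each).

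KRT13 at its own row (chromosome 17, 41500981 to 41505705, minus strand) had 0.811, 0.225, 0.983 and 1.31 CPM with synta-66, against 2.58, 2.33, 5.32 and 4.32 CPM with CPA alone. The groups did not overlap, but the libraries with synta-66 held at most 4 reads each. The log2 fold change was -2.17 ± 0.67 (SE; edgeR adjusted p = 0.0365). KRT13 also passed the filter only through groups in which it was high, so this call too is a description. The call ended without CPA replicate 3 (adjusted p = 0.136) or 4 (0.0854), without CPA with synta-66 replicate 1 (0.0638), 2 (0.123) or 3 (0.0632), and without the 3 libraries rich in non-unique alignments (0.0621). At the opposite feature, the noncoding ENSG00000229732 (chromosome 17, 41500983 to 41502409, plus strand), 95 of whose 476 bases face KRT13 coding sequence, KRT13 had 4.06, 2.93, 3.69 and 7.83 CPM with synta-66, against 9.03, 3.26, 6.34 and 7.99 CPM with CPA alone. That reading overlapped between the groups and was not called (-0.57 ± 0.43, SE; 95% interval -1.45 to 0.31; edgeR adjusted p = 0.532).

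HRNR had 11.4, 9.91, 7.62 and 13.9 CPM with synta-66, against 2.58, 2.56, 2.46 and 6.26 CPM with CPA alone. Each library with synta-66 was above each with CPA alone. HRNR thus had a log2 fold change of 1.59 ± 0.36 (SE; 95% interval 0.87 to 2.31), or 3.01-fold (edgeR adjusted p = 0.00217). Without the 3 libraries rich in non-unique alignments it was 1.29, no longer called (adjusted p = 0.0691). FLG-AS1, which spans HRNR, had 1.76 ± 1.53 CPM with synta-66 and 0.978 ± 0.656 CPM with CPA alone (SD, n = 4 each; log2 fold change 0.91 ± 0.91, SE; edgeR adjusted p = 0.668).

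KRT5, KRT14 and KRT17, the other keratins among the chosen genes, had lower ranges with synta-66 without passing the test. KRT5 (chromosome 12, 52514575 to 52520530) had 19.5, 12.6, 19.4 and 15.2 CPM with synta-66, against 28.7, 24.4, 20.3 and 22.02 CPM with CPA alone (log2 fold change -0.52, 95% interval -0.99 to -0.05). KRT14 (chromosome 17, 41582279 to 41586895) had 4.46, 3.38, 4.67 and 4.35 CPM with synta-66, against 10.3, 7.67, 4.91 and 6.91 CPM with CPA alone (-0.82, -1.62 to -0.02). KRT17 (chromosome 17, 41619442 to 41624842) had 3.25, 2.70, 2.46 and 2.61 CPM with synta-66, against 3.61, 10.0, 4.91 and 5.40 CPM with CPA alone (-1.12, -2.11 to -0.13). For each of these 3 genes the highest library with synta-66 lay below the lowest with CPA alone, and the edgeR adjusted p was 0.202, 0.251 and 0.189 in the order given.

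**Figure D4:**
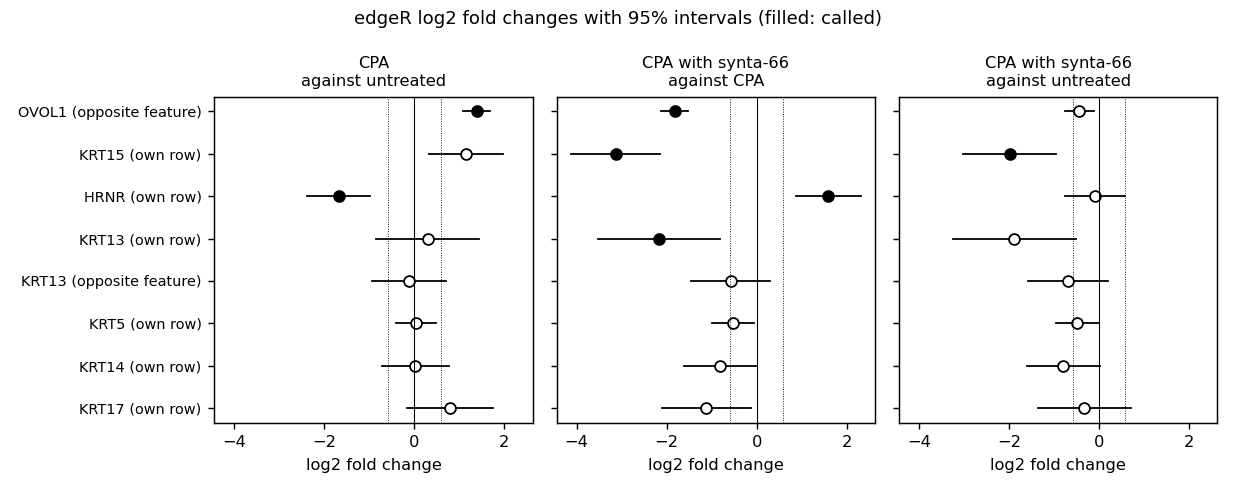
Log2 fold changes (points) with 95% intervals (lines) for the 8 tested readings in the 3 comparisons; filled points were called and dotted lines mark 1.5-fold. For CPA with synta-66 against CPA alone, OVOL1 at -1.82, KRT15 at -3.13 and KRT13 at its own row at -2.17 were called lower and HRNR at 1.59 higher. KRT15 and KRT13 at its own row passed the filter only through groups in which they were high.

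The third comparison sets CPA with synta-66 against untreated cells, and so shows where each gene ended. It shares its libraries with the other comparisons. KRT15 was the only one of the 8 readings called, and it was lower, with 2.9% of all tested rows called (1.66% higher and 1.24% lower). It had 0.974 ± 0.546 CPM with synta-66 and 4.11 ± 1.57 CPM in untreated cells (SD, n = 4 each), and the groups did not overlap, as at 9.21% of all tested rows. The log2 fold change was -1.98 ± 0.51 (SE; edgeR adjusted p = 0.0143). As only 1 library with synta-66 had 5 reads, KRT15 passed the filter through the other groups, where it was high, and this call too is a description. The KRT15 call ended without CPA with synta-66 replicate 1 (adjusted p = 0.0505) or 2 (0.0509), without untreated replicate 1 (0.0874) and without the 3 libraries rich in non-unique alignments (0.0828).

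For OVOL1 at its opposite feature the means were 28.1 ± 7.12 CPM with synta-66 and 38.6 ± 6.57 CPM in untreated cells (SD, n = 4 each). The log2 fold change was -0.44 ± 0.16 (SE; 95% interval -0.75 to -0.12) and was not called (edgeR adjusted p = 0.124), but was without CPA with synta-66 replicate 2 (-0.63, adjusted p = 0.0217). HRNR had 10.7 ± 2.64 CPM with synta-66 and 11.3 ± 2.36 CPM in untreated cells, a log2 fold change of -0.09 with an interval from -0.75 to 0.57. KRT13 at its own row had 0.831 ± 0.453 CPM with synta-66 and 3.01 ± 1.04 CPM in untreated cells (SD, n = 4 each), again without overlap and not called (-1.88, 95% interval -3.25 to -0.51; edgeR adjusted p = 0.129).

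In order of level, OVOL1 at its opposite feature was lowest with synta-66, then in untreated cells and highest with CPA, and the 2 lower groups overlapped. KRT15 had the same order with no overlap between neighbours. HRNR was lowest with CPA, and its levels in the other 2 groups did not differ beyond their spread. For KRT13 at its own row the group with synta-66 was lowest and the other 2 overlapped. KRT5, KRT14 and KRT17 were lowest with synta-66 by their means, and their untreated libraries overlapped both other groups.

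Over all tested rows, 130 (0.872%) were called higher in the first comparison and lower in the second, as OVOL1 was, and 57 (0.382%) lower and then higher, as HRNR was, 1.25% together. Both comparisons use the same CPA libraries. Among the 5 rows most like OVOL1 at its opposite feature, by the root mean square difference of centred log2 CPM over 12 libraries among 6356 rows with a mean of at least 5 CPM, were IER3-AS1 (0.287), PAX8 (0.294), ENSG00000257042 (0.306) and GLIPR1-AS1 (0.324). On the other strand, IER3-AS1 faces IER3, an immediate early gene, and ENSG00000257042 faces PTHLH, which encodes parathyroid hormone-related protein. IER3-AS1 averaged 1047 ± 46.6 CPM with synta-66, 2792 ± 144 CPM with CPA and 1421 ± 86.2 CPM in untreated cells (SD, n = 4 each). ENSG00000257042 averaged 331 ± 13, 1487 ± 99.0 and 384 ± 19.2 CPM in the same order.

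Around the 9 genes, 5 lists of epidermal genes were read in the same way, at own rows and at opposite features. Own rows of 62 listed genes were tested, the tested ones among the 9 included. Of these, 0 rose and 1 fell with CPA against untreated cells, 2 rose and 3 fell with CPA and synta-66 against CPA alone, and 1 rose and 1 fell with CPA and synta-66 against untreated cells. Over all tested rows 2.85%, 4.76% and 2.9% were called in these comparisons, and nothing particular to the lists is read from their counts. The 3 own rows that fell against CPA alone, KRT15, KRT13 and KLK10, passed the filter only through groups in which they were high, so the count of falls is a description. The median log2 fold changes of the 62 were 0.05, -0.08 and -0.14, beside -0.01, -0.04 and -0.06 over all tested rows. At opposite features 24 listed genes were tested at 23 features, as a feature can face more than 1 gene. Of these, 2 rose and 0 fell, 2 rose and 2 fell, and 2 rose and 0 fell in the same order of comparisons. At an unadjusted p under 0.05, 4 own rows were higher and 3 lower with CPA against untreated cells, 3 higher and 11 lower with synta-66 against CPA alone, and 1 higher and 5 lower with synta-66 against untreated cells. DESeq2 called 1 higher and 2 lower, 2 higher and 3 lower, and 1 higher and 1 lower in that order. Over all tested rows DESeq2 called 305 higher and 203 lower, 338 higher and 464 lower, and 265 higher and 216 lower. The share of all tested rows with an unadjusted p under 0.05 was not counted, so no excess is read from such counts here or below. At opposite features, where edgeR called 0 lower with CPA against untreated cells or with synta-66 against untreated cells, 2 were lower at an unadjusted p under 0.05 in each, and DESeq2 called 0 lower.

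Of 17 keratins, 10 were tested at own rows, and 2 fell with synta-66 against CPA alone, KRT15 and KRT13, while 2.82% of all tested rows were called lower. Both passed the filter through groups in which they were high. Of the 10, 7 had a log2 fold change below 0 and 3 above 0 (KRT10, KRT19 and KRT80) in that comparison, and 0 were called higher by edgeR or DESeq2, with 1 higher at an unadjusted p under 0.05. The median log2 fold change over the 10 was -0.87 in that comparison, 0.17 for CPA against untreated cells and -0.40 for both agents against untreated cells. KRT15, KRT13, KRT5, KRT14 and KRT17, among the 10, were chosen with earlier results known, so these medians are a description. The list leaves out KRT8 and KRT18, so the medians do not speak for all keratins. Own rows of KRT8 and KRT18 had log2 fold changes of 0.11 ± 0.07 and 0.42 ± 0.16 (SE) with synta-66 against CPA alone. Neither was called (edgeR adjusted p = 0.401 and 0.107), and their reads cannot be assigned to one. Of 35 cornified envelope genes only 7 were tested at own rows, and HRNR was the only one called in any comparison. The 4 tested at opposite features (FLG, CDSN, SCEL and CALML3) gave 0 calls with edgeR, 0 with DESeq2 and 0 at an unadjusted p under 0.05.

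Among 31 epidermal transcription factors and Notch genes, 15 were tested at own rows and 9 at opposite features. CEBPA, a C/EBP factor of differentiating keratinocytes, was read at its opposite feature ENSG00000267580, with 14.9 ± 2.47 CPM with synta-66, 43.3 ± 5.15 CPM with CPA and 23.1 ± 8.93 CPM in untreated cells (SD, n = 4 each). That reading of CEBPA rose with CPA (log2 fold change 0.89 ± 0.19, SE; edgeR adjusted p = 0.00244). It fell with synta-66 against CPA alone (-1.52 ± 0.21, SE; edgeR adjusted p = 7.96e-07). The own row of CEBPA held at most 8 reads in any library and was not tested. CEBPB, its relative that also serves the stress response, had another course. Its own row had 21.7 ± 4.43 CPM with synta-66, 7.95 ± 1.15 CPM with CPA and 8.95 ± 2.28 CPM in untreated cells, and CEBPB-AS1 opposite it had 70.7 ± 16.3, 40.2 ± 5.17 and 29.2 ± 9.63 CPM. At both readings CEBPB rose with synta-66 against CPA alone (1.44 ± 0.26 and 0.82 ± 0.17, SE; edgeR adjusted p = 0.000138 and 0.000864) and against untreated cells (1.28 ± 0.26 and 1.30 ± 0.18, SE; adjusted p = 0.00103 and 9e-07).

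JAG1, a Notch ligand, had 62.1 ± 8.74 CPM with synta-66, 39.7 ± 2.48 CPM with CPA and 35.6 ± 7.69 CPM in untreated cells at its opposite feature ENSG00000270792. It rose against CPA alone by 0.65 ± 0.15 on the log2 scale (SE; edgeR adjusted p = 0.0025), near the fold minimum, which it missed without CPA with synta-66 replicate 2 (0.57), and against untreated cells by 0.82 ± 0.15 (SE; adjusted p = 0.000208). JAG1 at its own row had 11.9 ± 4.56, 8.22 ± 3.87 and 8.23 ± 3.26 CPM and was not called. KLK10, a kallikrein of the barrier protease list, fell at its own row with synta-66 against CPA alone, to 0.696 ± 0.434 CPM against 6.17 ± 1.99 CPM (SD, n = 4 each; log2 fold change -3.22 ± 0.63, SE; edgeR adjusted p = 0.000387). Libraries with synta-66 held 1 to 3 reads of KLK10 and those with CPA alone 16 to 32, so it passed the filter through the other groups, in which it was high, and the call is a description. At its opposite feature, with more reads, KLK10 had 35.7 ± 4.87 CPM with synta-66 and 45.1 ± 4.46 CPM with CPA alone and was not called (-0.33 ± 0.15, SE; adjusted p = 0.204). Of 22 genes of desmosomes, hemidesmosomes and basal adhesion, 19 were tested at own rows and 5 at opposite features, and edgeR and DESeq2 called 0 in any comparison. At an unadjusted p under 0.05, 1 own row and 1 opposite feature were higher with CPA against untreated cells, and 2 own rows and 1 opposite feature were lower with synta-66 against CPA alone. Nothing is read from these counts, as the share over all tested rows was not counted. CDH1, the E-cadherin gene, named here after its values were seen, passed the adjusted p but not the fold minimum at its opposite feature ENSG00000260798 with CPA against untreated cells (log2 fold change 0.40 ± 0.09, SE; edgeR adjusted p = 0.0051).

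**Figure D5:**
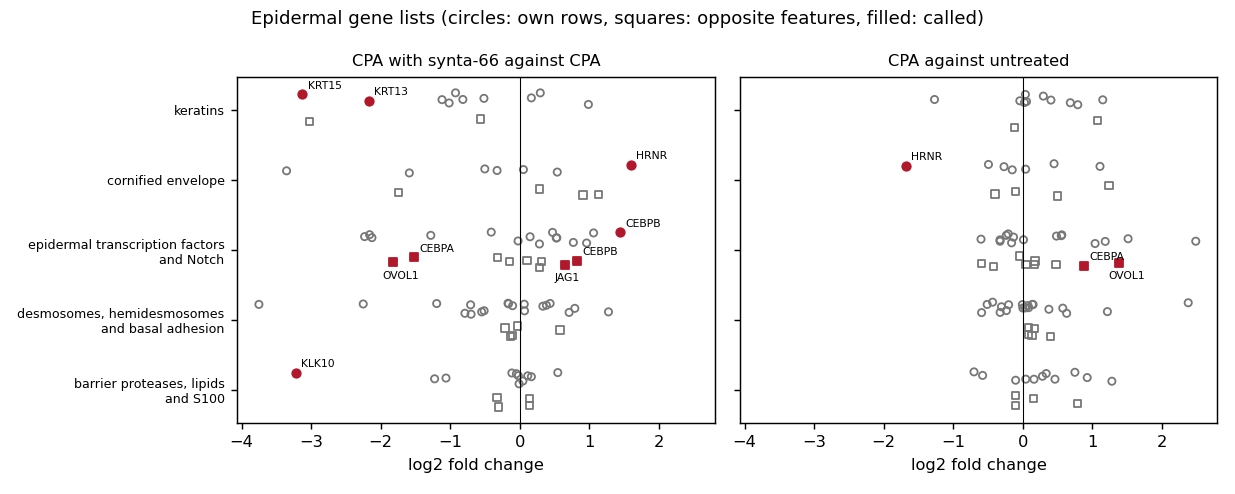
Log2 fold changes of tested members of the 5 epidermal lists for CPA with synta-66 against CPA alone and for CPA against untreated cells (circles: own rows, squares: opposite features, filled and named: called). The called genes lie on both sides of 0: with synta-66, KRT15, KRT13, OVOL1, CEBPA and KLK10 were lower and HRNR, CEBPB and JAG1 higher. KRT15, KRT13 and KLK10 passed the filter only through groups in which they were high.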

How the data were processed

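RNA of 12 HSC-3 libraries was sequenced. The authors deposited counts for each gene as whole numbers, with no normalization. Per the labels' protocols, reads were trimmed with Trimmomatic 0.32 (0.36 per the submitters' processing notes), aligned with STAR 2.5.2a to GRCh38 and counted with HTSeq 0.6.1p1 on the Ensembl 84 annotation, with the library taken as stranded. Uniquely aligned reads reached 107984468 in a library, more than the trimmed reads that the labels give for any sample, so both reads of a pair may have been counted, and counting intervals may be too narrow. The 5 closing rows that name no gene were left out, and hold 90.5% to 96.3% of uniquely aligned reads as reads in no feature.

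Exon overlaps are those of GENCODE 44, not of Ensembl 84; 56558 of 60675 row IDs matched it. The test was edgeR's (version 4.0.16, R 4.3.3) after TMM and the study's filter (at least 5 reads in a share of 0.5 of the libraries of a group), in 1 quasi-likelihood fit of 12 libraries by group with Benjamini-Hochberg adjustment over 14911 rows. A call needs adjusted p under 0.05 and 1.5-fold. Intervals are 95%. Raw counts of pairs of libraries of a group gave a chi-square per degree of freedom of 4.85 to 315. The highest, 234 to 315, were between CPA with synta-66 replicates 1 or 4 and replicates 2 or 3. These values include mitochondrial ribosomal RNA and would rise if both reads of a pair were counted, so they do not measure differences between cultures. Alternatives were DESeq2 1.42.0, other scalings, filters and overlap minimums, no minimum fold, 2-group fits, a replicate block, and left-out libraries or mitochondrial ribosomal RNAs. Named are the 9 genes, from each list its called genes averaging 1 CPM or more (4 at most), and the 5 rows most like OVOL1 (pseudocount 0.5 CPM), 1 of which is not reported here. KRT8, KRT18, KRT10, KRT80, CDH1 and the neighbours OVOL1-AS1, FLG-AS1 and KRT19 fall outside this rule and were chosen after their values were seen. The genes and lists were chosen with earlier results of these data known.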

Additional observations from a re-analysis of the deposited data

Results flagged for a closer look

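HRNR at its own row had 1 CPA library that stood apart from the others of its group. CPA replicate 4 had 6.26 CPM, while the other 3 CPA libraries lay between 2.46 and 2.58 CPM, so that 0.967 of the range of the group was the gap below it. Of 24 groups of 4 libraries examined in this way it was the only one past Dixon's 95% critical value for 4 samples, and chance flags about 1 in 20 groups. The cause was not tested.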

How the results depend on the processing

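The calls for OVOL1 (CPA against untreated, CPA with synta-66 against CPA), KRT15 (CPA with synta-66 against CPA) and HRNR (CPA against untreated) held under every alternative that was run. As KRT15 passed the filter only through groups in which it was high, its call remains a description. Of 546 alternative log2 fold changes of the 8 readings, 13 lost a call, 2 gained one and 0 reversed a called direction. Not all of them could move: no minimum fold reuses the main fit, and for OVOL1 the other overlap minimums return the same feature. Leaving out a library outside a comparison acts on it only indirectly. The tally is therefore not a measure of how firm the calls are. KRT15 for CPA against untreated was called by DESeq2 (1.16). KRT15 for CPA with synta-66 against untreated lost its call in the 2-group fit (-1.98) and without CPA with synta-66 replicates 1 and 4 and untreated replicate 3, the libraries high in non-unique alignments (-1.85), as did HRNR (1.29) and KRT13 at its own row (-2.60) for CPA with synta-66 against CPA without those libraries, and KRT13 with no filter (-2.18), where more rows are tested. Whether the larger number of rows ended the KRT13 call with no filter was not tested, and neither was the cause of the other changes. Leaving out single libraries gave -0.63 to -0.32 for OVOL1 and -2.42 to -1.70 for KRT15, both with synta-66 against no treatment, and -2.43 to -1.80 for KRT13 at its own row for CPA with synta-66 against CPA. With no minimum fold, 261 rows fell with CPA (156 with it) and 515 rose when synta-66 was added to CPA (289 with it). Deviations from the group means correlated at -0.07 to 0.13 over 12 same-numbered pairs and at -0.14 to 0.18 over other pairs. Of 24 best matches in another group, 6 had the same number. No pairing by number was visible, but libraries that share a number may still have been handled together. With the replicate number as a block, 283 rows rose and 158 fell with CPA, 292 rose and 431 fell when synta-66 was added to CPA, 236 rose and 182 fell with both agents against untreated cells, and no call of the 8 readings changed. At 1 to 7 reads per library with synta-66, KRT15 and KRT13 cannot be placed precisely below CPA.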
